A study of Mus musculus with 51 samples.

Results

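In the extra-embryonic ectoderm (ExE) of mouse embryos, 9471 H3K4me3 peaks on the 19 autosomes lay on an H3K27me3 peak with which they shared at least 1 bp, and both peaks of the pair held at least 40 reads assigned to a parent in each of 2 reciprocal crosses. These 9471 pairs, drawn from 40468 H3K4me3 peaks and 22515 H3K27me3 peaks, were used to set the allele ratio of an activating mark beside that of a repressive mark. The pairs held 6575 different H3K27me3 peaks, and 4619 H3K4me3 peaks shared their H3K27me3 peak with at least 1 other member, up to 13 on a single peak. At any depth, 17559 H3K4me3 peaks overlapped an H3K27me3 peak.

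The libraries were native, micrococcal nuclease ChIP-seq of F1 hybrids at embryonic day 6.5, named with the mother's strain first: B6/CAST from C57BL6/Babr mothers and CAST/EiJ (CAST) fathers, CAST/B6 from the reverse mating, and matDKO/CAST. In matDKO/CAST the mothers were of mixed B6/129 background with floxed Dnmt3a and Dnmt3b deleted in the growing oocyte by Zp3-cre, so that the embryos inherited a maternal genome without the oocyte's DNA methylation, and the fathers were CAST. A library was made from pooled ExE of several embryos, with the antibodies given aliquots of the same chromatin, so an H3K4me3 and an H3K27me3 library with the same number came from the same embryos. Each mark had 2 libraries per cross. The wild-type crosses carried no deletion and served to separate parent (paternal against maternal) from strain (B6 against CAST). In matDKO/CAST the reads matching 129 were added by the authors to the maternal set, a step that can add maternal reads alone, and the paternal share of all allelic reads there was 47.1 and 48.9% for H3K4me3 and 44.2 and 46.9% for H3K27me3.

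H3K4me3 marks the promoters of active genes and most CpG-rich promoters. H3K27me3 is deposited by Polycomb repressive complex 2 and marks repressed chromatin, often over long domains. At imprinted genes, those expressed from 1 parental allele, these marks can sit on different alleles of the same promoter. In extra-embryonic tissue the paternally transcribed noncoding RNAs Kcnq1ot1 and Airn silence neighbouring genes on the paternal chromosome with the help of Polycomb complexes. A separate class of imprints, called noncanonical, starts from H3K27me3 inherited from the oocyte in place of DNA methylation. The study reports that this maternal H3K27me3 was lost by the end of pre-implantation stages and that maternal DNA methylation took its place in ExE. The origin of the maternal H3K27me3 at the members below was not tested.

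Allelic reads in autosomal peaks numbered 4.25 to 6.82 M (megareads) per wild-type H3K4me3 library and 3.38 to 6.58 M per wild-type H3K27me3 library, and 2.11 to 3.86 M in matDKO/CAST. A check of the tissue used H3K4me3 within 1 kb of the start sites, in RPKM of all reads. Of 10 trophoblast and ExE markers, 5 were higher in all 4 wild-type ExE libraries than in all 4 epiblast libraries and 0 were lower, and of 10 epiblast markers 1 was higher and 8 were lower. Of 10 visceral endoderm markers, 4 were higher in ExE and 1 lower (median 10.2 against 4.92 RPKM), with the endoderm marker Afp at 1.25 ± 0.173 RPKM (SD, n = 4) in ExE. Of 4 ectoplacental and giant cell genes, 1 was higher, Hand1, at 19.4 RPKM, and Ascl2 stood at 6.03, Prl3d1 at 0.169 and Tpbpa at 0.0957 RPKM. The part of visceral endoderm in the ratios below was not tested. In bulk tissue, fewer cells carrying a mark and less of the mark per cell cannot be told apart.

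A member's H3K4me3 peak had a median length of 4500 bp and its H3K27me3 peak of 35000 bp, with medians of 527 and 1413 allelic reads over the 4 wild-type libraries. The H3K27me3 ratio of a member is a mean over its whole H3K27me3 peak, which is often far longer than the H3K4me3 peak. An annotated start site lay in 6711 members (70.9%), 821 others overlapped an exon, 555 lay in an intron and 1384 were intergenic. The H3K4me3 peak was wholly covered by H3K27me3 in 6106 members (64.5%).

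The promoters of 6 members that stand for the patterns below are shown as the 250 bases before the annotated start on GRCm38 (RefSeq), read 5′ to 3′ on the gene's strand, with each CG dinucleotide in capitals. CG reads the same on both strands. Ascl2, Phlda2 and Slc22a3 carried H3K4me3 on the maternal and H3K27me3 on the paternal allele, Sfmbt2 the reverse, Plagl1 both marks on the paternal allele, and Uggt2 opposite marks on the B6 and CAST alleles.
Ascl2 promoter, chr7:142969265-142969514, minus strand: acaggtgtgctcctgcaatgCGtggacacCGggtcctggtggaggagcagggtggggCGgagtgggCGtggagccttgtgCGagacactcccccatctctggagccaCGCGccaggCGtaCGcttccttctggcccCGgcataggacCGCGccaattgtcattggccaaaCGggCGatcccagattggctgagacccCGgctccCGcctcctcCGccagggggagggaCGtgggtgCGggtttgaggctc
Phlda2 promoter, chr7:143502525-143502774, minus strand: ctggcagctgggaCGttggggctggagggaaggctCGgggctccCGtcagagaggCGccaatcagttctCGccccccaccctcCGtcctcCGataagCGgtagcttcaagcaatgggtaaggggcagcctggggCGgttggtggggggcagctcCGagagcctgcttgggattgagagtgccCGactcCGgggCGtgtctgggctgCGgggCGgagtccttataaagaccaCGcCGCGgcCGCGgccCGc
Slc22a3 promoter, chr17:12507705-12507954, minus strand: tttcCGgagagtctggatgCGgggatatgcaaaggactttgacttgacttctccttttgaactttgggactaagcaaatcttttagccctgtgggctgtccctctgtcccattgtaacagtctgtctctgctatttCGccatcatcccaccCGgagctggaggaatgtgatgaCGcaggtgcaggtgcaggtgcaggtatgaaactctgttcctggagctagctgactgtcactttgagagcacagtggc
Sfmbt2 promoter, chr2:10372186-10372435, plus strand: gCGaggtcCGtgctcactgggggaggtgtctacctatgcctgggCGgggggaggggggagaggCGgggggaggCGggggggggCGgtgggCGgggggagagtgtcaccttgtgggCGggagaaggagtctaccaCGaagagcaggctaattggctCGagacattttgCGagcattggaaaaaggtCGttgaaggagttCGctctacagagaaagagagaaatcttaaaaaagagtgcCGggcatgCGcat
Plagl1 promoter, chr10:13090582-13090831, plus strand: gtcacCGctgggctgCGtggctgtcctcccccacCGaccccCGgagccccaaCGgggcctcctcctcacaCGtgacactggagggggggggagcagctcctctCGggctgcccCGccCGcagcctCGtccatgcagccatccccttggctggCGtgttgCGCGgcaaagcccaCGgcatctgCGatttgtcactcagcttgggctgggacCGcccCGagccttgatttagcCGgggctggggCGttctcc
Uggt2 promoter, chr14:119099435-119099684, minus strand: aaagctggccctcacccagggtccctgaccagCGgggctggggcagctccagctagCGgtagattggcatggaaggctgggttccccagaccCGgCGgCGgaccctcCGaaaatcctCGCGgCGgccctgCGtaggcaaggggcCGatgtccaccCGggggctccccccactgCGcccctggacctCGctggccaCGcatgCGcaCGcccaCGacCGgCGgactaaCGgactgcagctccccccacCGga
These windows held 19, 21, 5, 15, 19 and 22 CG, in the order printed. Among 31396 RefSeq promoter entries on the autosomes the median was 6, and the shares of entries with at least as many CG were 20.3, 16.8, 56.0, 27.8, 20.3 and 15.3%. Where a gene had several entries in its peak, the window with the most CG was taken, so these ranks lean high. Under that choice the Slc22a3 window was near the median and the others lay above it.

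Most members carried both marks on both alleles. In 5522 members (58.3%) both marks lay within 0.5 log2 units of equality in both crosses. The parental log2 ratio, log2 of paternal over maternal reads with 0.5 reads added, was averaged over the crosses, and its SD over members was 0.255 for H3K4me3 and 0.254 for H3K27me3. The signs of the marks were opposite in 51.9% of members. The strain log2 ratio, B6 over CAST, had an SD of 0.475 for H3K4me3 and 0.315 for H3K27me3, with opposite signs in 52.3% of members. Strain therefore spread the H3K4me3 ratios more than parent did, and the signs of the marks were close to evenly mixed on both axes.

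Across members, the paternal/maternal ratio of H3K4me3 was weakly and negatively related to that of H3K27me3. In B6/CAST Pearson's r was -0.11 (Spearman's rho -0.09), and in CAST/B6 r was -0.08 (rho -0.09), each over 9471 pairs. These are descriptions without a p-value, since pairs share libraries, variants and in part an H3K27me3 peak. For the mean of both crosses, in which the strain difference cancels, r was -0.22 and rho -0.08. With 1 H3K4me3 peak per H3K27me3 peak this r was -0.074, and without members near listed imprinted genes -0.060. Marks measured in the same pool gave r of -0.11 and -0.06 in B6/CAST and -0.07 and -0.05 in CAST/B6, and marks from different pools of a cross gave -0.10, -0.08, -0.06 and -0.06, so the ranges for shared and for separate embryos overlapped. Between replicates of 1 mark r was 0.74 and 0.61 for H3K4me3 and 0.66 and 0.74 for H3K27me3, which shows how much of a single library's ratio recurred. The strain ratios of the marks gave an r of -0.04, smaller in size than the parental r, and a similar rho of -0.08.

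**Figure D1:**
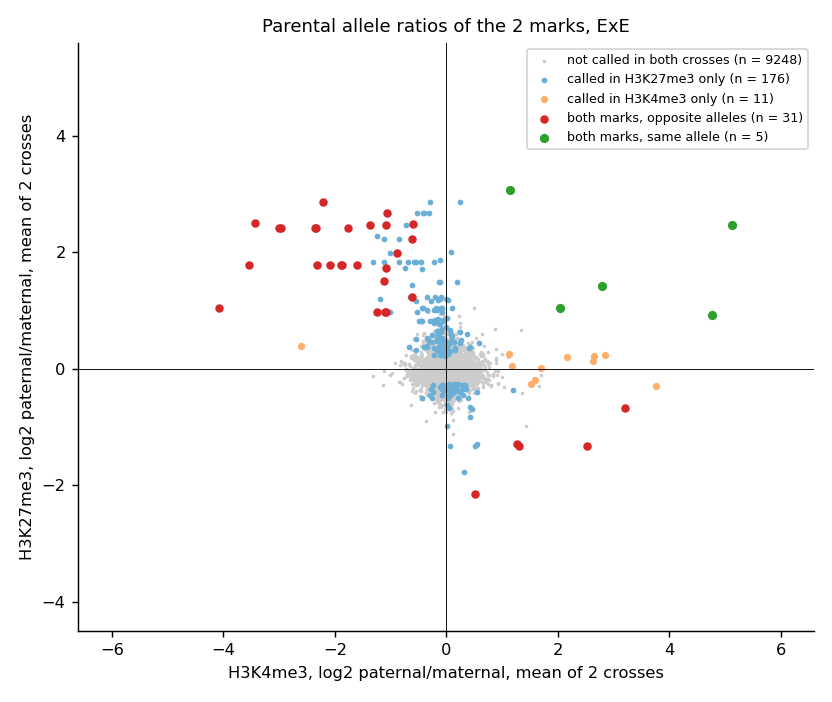
Parental ratio of H3K27me3 (y axis) against H3K4me3 (x axis), both as log2 paternal/maternal averaged over B6/CAST and CAST/B6, 1 point per member (n = 9471). Points called in both marks on opposite alleles (n = 31) lie mainly in the upper left quadrant and those called on the same allele (n = 5) in the upper right, while most members (n = 9248, including those that could not be tested) surround the origin.

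The negative parental relation lay in long H3K27me3 domains. In 5 classes of members by the length of the H3K27me3 peak, r was 0.14 for peaks of 2 to 13 kb (1947 members), 0.04 for 13.5 to 25.5 kb (1845), 0.01 for 26 to 47.5 kb (1927), -0.24 for 48 to 93.5 kb (1860) and -0.52 for 94 to 797.5 kb (1892). Spearman's rho fell less, from -0.01 in the shortest to -0.18 in the longest class. The strain ratios showed no such order, with r between -0.10 and 0.01 in the same classes. By the length of the H3K4me3 peak, the strain relation went from 0.02 in the shortest class (1500 to 3000 bp) to -0.15 in the longest (9000 to 87000 bp).

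**Figure D2:**
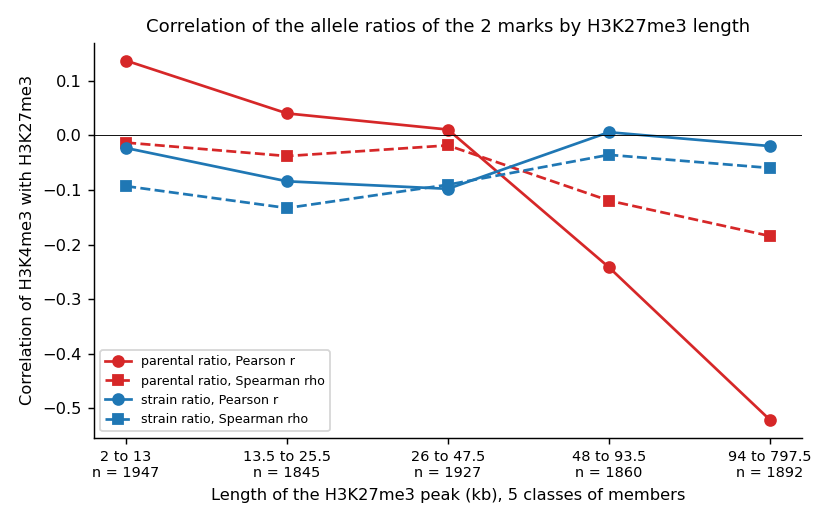
Correlation between the allele ratios of H3K4me3 and H3K27me3 (y axis) in 5 classes of members by H3K27me3 peak length in kb (x axis, with the number of members), for the parental and the strain ratio. The parental Pearson r goes from 0.14 in the shortest to -0.52 in the longest class, and the strain r stays between -0.10 and 0.01.

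The relation was stronger on chromosomes 7 and 17 than on the other autosomes pooled. Over the 1162 members on chromosomes 7 and 17, the parental r was -0.56 and rho -0.25. Over the 8309 members on the other autosomes r was -0.00077 and rho -0.05. Within the longest class, 302 members on chromosomes 7 and 17 gave r of -0.64 and 1590 members elsewhere -0.15. The split by chromosome was chosen after the values were seen. On chromosome 17, the paternal share of all H3K27me3 reads in peaks reached 62.3 and 62.5% with a CAST father and 63.4 and 61.9% with a B6 father. On chromosome 7 the mean was 53.6% ± 0.561 (SD, n = 4), on chromosome 12 it was 47.0% ± 1.01, and the means of the other autosomes lay between 48.7 and 49.8%. H3K4me3 on chromosome 17 showed no such shift, with 48.3 to 50.6% paternal. In matDKO/CAST the H3K27me3 share on chromosome 17 was 47.7 and 49.4%.

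To call single members, maternal and paternal reads were compared within each cross with edgeR's quasi-likelihood test over all informative peaks of a mark, and imprinted peaks were those with an adjusted p-value under 0.05 in both crosses and the same parent ahead. Of the 9408 members tested for H3K4me3, 47 (0.5%) were imprinted, 20 paternal and 27 maternal, against 0.319% of all 23211 H3K4me3 peaks tested (0.19% paternal, 0.129% maternal). Of the 9428 tested for H3K27me3, 212 (2.25%) were imprinted, 155 paternal and 57 maternal, against 1.35% of all 18592 H3K27me3 peaks (1.12% paternal, 0.226% maternal). Several members share an H3K27me3 peak, which raises their count. With both alleles of a library as a block, H3K27me3 gave 409 members, 250 paternal and 159 maternal. DESeq2 and leaving out 1 pool at a time lowered the counts of both marks, by the values given under processing. With factors from library totals the H3K27me3 split was 126 paternal to 132 maternal, and the median log2 ratio of all H3K27me3 peaks moved from -0.01 to -0.05.

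Both marks were imprinted in 36 members, which held 22 H3K27me3 peaks. In 31 of them the marks lay on opposite alleles and in 5 on the same allele. The 31 comprised 26 with maternal H3K4me3 and paternal H3K27me3 and 5 with paternal H3K4me3 and maternal H3K27me3. All 5 with both marks on 1 allele were paternal. DESeq2 called 14 of the 31, and leaving out B6/CAST pool 1, CAST/B6 pool 1 or CAST/B6 pool 2 left 14, 17 and 19, with 0 of the 31 moving to the same allele under any of these. In a joint fit of both crosses with a term for parent, 75 members passed for H3K4me3 (0.797%, against 0.711% of all peaks) and 1103 for H3K27me3 (11.7%, against 7.27%), and 49 passed in both marks on opposite alleles and 9 on the same allele, again all paternal. With the library block 116 passed for H3K4me3, 1758 for H3K27me3 and 16 in both marks on the same allele. DESeq2 and leaving out 1 pool lowered the H3K27me3 count and the count on opposite alleles, by the values given under processing. Library totals changed the split of the H3K27me3 parent effect from 528 paternal and 575 maternal to 416 and 1138, and of all H3K27me3 peaks 4.75% passed as paternal and 2.52% as maternal.

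Where paternal H3K27me3 alone was called, H3K4me3 leaned to the maternal allele mainly on chromosomes 7 and 17. In the 124 members with paternal H3K27me3 and no H3K4me3 call, the median parental log2 ratio was 0.78 for H3K27me3 and -0.14 for H3K4me3, and 99 leaned to the maternal allele in H3K4me3. By single cross, H3K4me3 was on the paternal side in 36 of the 124 in B6/CAST and in 35 in CAST/B6, and in the 36 members on other chromosomes in 15 (median -0.02) and 17 (median -0.06). In the 52 with maternal H3K27me3 only, the medians were -0.38 and 0.07, and 39 leaned to the paternal allele in the mean of the crosses. By single cross the paternal side held 27 (median 0.01) in B6/CAST and 32 (median 0.16) in CAST/B6. Over all members the median H3K4me3 log2 ratio was -0.01 and the signs were opposite in 51.9%. Where H3K4me3 alone was called, the H3K27me3 ratios were small and went both ways. In 10 members with paternal H3K4me3 the medians were 1.93 for H3K4me3 and 0.09 for H3K27me3, and 3 leaned to the maternal allele in H3K27me3. The joint fit passed for H3K27me3 in 6 of the 10, against 7.27% of all H3K27me3 peaks. It was paternal at Myl2, Magel2 and Galnt6 and maternal at 2410003L11Rik, Ccdc40 and Smoc1.

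The difference between the marks was also tested directly, as the interaction of mark and parent in a single edgeR fit of all pairs. It passed in 249 of 9365 members (2.66%, against 2.64% of all 11390 pairs fitted), a share at the background level. H3K4me3 was on the paternal side of H3K27me3 in 80 and on the maternal side in 169, and the unscaled ratios had opposite signs in 226. The block gave 400 members, and library totals gave a split of 154 to 150. Of the 249, 71 were on chromosome 17 and 54 on chromosome 7. Without these chromosomes, a choice made after the values were seen, the count was 124, with H3K4me3 toward the father in 72 and toward the mother in 52.

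The Kcnq1 domain on distal chromosome 7 held most of the members with maternal H3K4me3 and paternal H3K27me3. Of 17 genes listed for the domain, 13 had a member within 10 kb, in 13 members, of which 11 were called maternal in H3K4me3, 13 paternal in H3K27me3 and 11 in both on opposite alleles. Over all peaks 0.129% were called maternal in H3K4me3 and 1.12% paternal in H3K27me3. The reverse calls were made in 0.19% for H3K4me3 and 0.226% for H3K27me3, and the same shares stand behind the lists that follow. The median parental log2 ratio was -1.76 for H3K4me3 and 1.79 for H3K27me3, and the difference between marks passed in 13 of 13, against 2.64% of all pairs. Part of the lists of imprinted genes was assembled by the study on these samples, so their directions are not independent evidence.

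Ascl2 encodes a transcription factor required for trophoblast development. At its promoter peak (chr7:142965500-142970500) the paternal share of H3K4me3 reads came to 6.25 and 19.3% for B6/CAST, then 5.45 and 3.12% for CAST/B6. The H3K27me3 peak over it, chr7:142781500-143250000, had paternal shares of 77.6, 77.7, 78.0 and 76.4% in the same order. All 4 libraries of each mark lay on the same side of equality, H3K4me3 maternal and H3K27me3 paternal. Between the marks the difference was -5.42 log2 units, H3K4me3 minus H3K27me3 (adjusted p = 1.21e-23 in the edgeR fit). That H3K27me3 peak also holds the members of Cd81, Tssc4 and Kcnq1, so these share 1 H3K27me3 value. Cd81, a tetraspanin gene, had 21.9% ± 5.48 (SD, n = 4) paternal H3K4me3 reads, Tssc4 25% ± 3.64, and the promoter of Kcnq1, a potassium channel gene, 16.6% ± 5.80.

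Cdkn1c (p57), an inhibitor of cyclin-dependent kinases, and Phlda2, whose product restrains placental growth, lay on the next H3K27me3 peak, chr7:143297500-143510000. Its paternal share was 83.5 and 81.5% in B6/CAST and 86.8 and 83.9% in CAST/B6. At Cdkn1c (chr7:143458000-143471000) the paternal share of H3K4me3 was 13.7, 20.7, 16.9 and 16.5%. At Phlda2 (chr7:143499500-143507500) it was 8.99, 15.2, 10.8 and 10.5%. Both promoters were thus maternal in H3K4me3 in every wild-type library, and the H3K27me3 peak over them was paternal. That H3K27me3 ratio is a mean over 212500 bp, not a value for each promoter. The marks differed by -4.78 log2 units at Cdkn1c (adjusted p = 4.43e-29) and -5.44 at Phlda2 (adjusted p = 1.98e-36). Slc22a18, encoding an organic cation transporter, had 23.8% ± 6.79 paternal H3K4me3 reads on the same peak.

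At the next H3K27me3 peak both ratios were smaller. Tnfrsf22 and Tnfrsf23, which encode decoy receptors for TRAIL, and Osbpl5, which encodes an oxysterol-binding protein relative, had 31.9, 31.6 and 29.6% paternal H3K4me3 reads on an H3K27me3 peak with a paternal share of 66.1% ± 1.20. Cars, the cysteinyl-tRNA synthetase gene, touched the same H3K27me3 peak over 500 bp. Its H3K4me3 was 48.5% ± 3.38 paternal and was not called, and the difference between the marks was -1.10 log2 units (adjusted p = 4.03e-12). Of 52 members within 3 Mb of the Kcnq1ot1 start, 37 had paternal H3K27me3 calls, on 12 peaks between 1.40 Mb below and 1.64 Mb above it in genome coordinates. Maternal H3K4me3 was called in 16 of these 52, all between -0.72 and 0.68 Mb, and paternal H3K4me3 in 1, Igf2.

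On chromosome 17 the paternal H3K27me3 reached farther than the H3K4me3 calls. Of 85 members within 12 Mb of the Airn start, 53 had paternal H3K27me3 calls, on 25 peaks between 9.43 Mb below and 11.2 Mb above the start, and 10 had maternal H3K4me3 calls. 0 of the 85 were called for paternal H3K4me3 or maternal H3K27me3. In the interval from 4 to 2 Mb below Airn, the median parental log2 ratio was 2.57 for H3K27me3 and -0.63 for H3K4me3 (8 members, all with opposite signs). From 8 to 6 Mb below it was 1.24 and -0.62 (11 members), and from 4 to 6 Mb above it 0.37 and -0.03 (5 members). From 2 to 4 Mb above, the H3K27me3 median was 0.33, with 3 of 6 members called paternal. Farther up the calls were sparse, with 0 of 5 members from 8 to 10 Mb. From 10 to 12 Mb 2 of 19 were called, and the H3K27me3 median was 0.02.

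Slc22a3, an organic cation transporter gene known to be silenced on the paternal chromosome in placenta, showed the widest gap among the listed genes of this chromosome. At its promoter peak (chr17:12506000-12508500) the paternal share of H3K4me3 was 13.3 and 17.5% in B6/CAST and 13.6 and 23.5% in CAST/B6. H3K27me3 over it (chr17:12372500-12721500) was 86.8, 86.5, 89.8 and 88.0% paternal. In every library H3K4me3 was maternal and H3K27me3 paternal. The difference between the marks was -5.13 log2 units (adjusted p = 2.70e-21), from 173 H3K4me3 reads in all. Igf2r, the gene overlapped by Airn and expressed from the maternal allele, had maternal H3K4me3 at its promoter (chr17:12765000-12771000; 14.9, 17, 12.7 and 12% paternal). The H3K27me3 peak there held 247 reads, was 54.1, 54.2, 64.0 and 51.0% paternal and was not called. The marks differed by -3.04 log2 units, so at the Igf2r promoter itself the H3K4me3 was maternal and the H3K27me3 close to equal.

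The H3K4me3 bias varied among members near Airn as well as far from it. In the 2 Mb below its start the median parental log2 ratio was -0.21 for H3K4me3 and 2.27 for H3K27me3 (8 members). An intergenic member nearest to Plg, on the H3K27me3 peak of Slc22a3 with a log2 ratio of 2.87, had -0.30 for H3K4me3. At Pde10a, a phosphodiesterase gene (chr17:8798000-8804000), H3K4me3 was 26.4, 36.8, 32.6 and 33.4% paternal under H3K27me3 of 84.4% ± 1.38 (SD, n = 4), a difference of -3.58 log2 units (adjusted p = 8.24e-33). At Arid1b, encoding a subunit of the BAF remodelling complex, H3K4me3 was 39.9% ± 3.55 and H3K27me3 82.0% ± 2.42 paternal, and at Dact2, encoding a Dishevelled-binding protein, 35.4% ± 4.68 and 79.8% ± 0.42. Qk, encoding the RNA-binding protein Quaking, overlapped its H3K27me3 peak (86.4% ± 1.10 paternal) over 1500 bp. Its H3K4me3 was 44.8% ± 1.13 paternal and was not called imprinted. Across the list for this domain, 12 of 20 genes had a member, in 17 members. H3K27me3 was paternal in 16, H3K4me3 maternal in 6, and the difference between marks passed in 17, all with H3K4me3 on the maternal side.

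**Figure D3:**
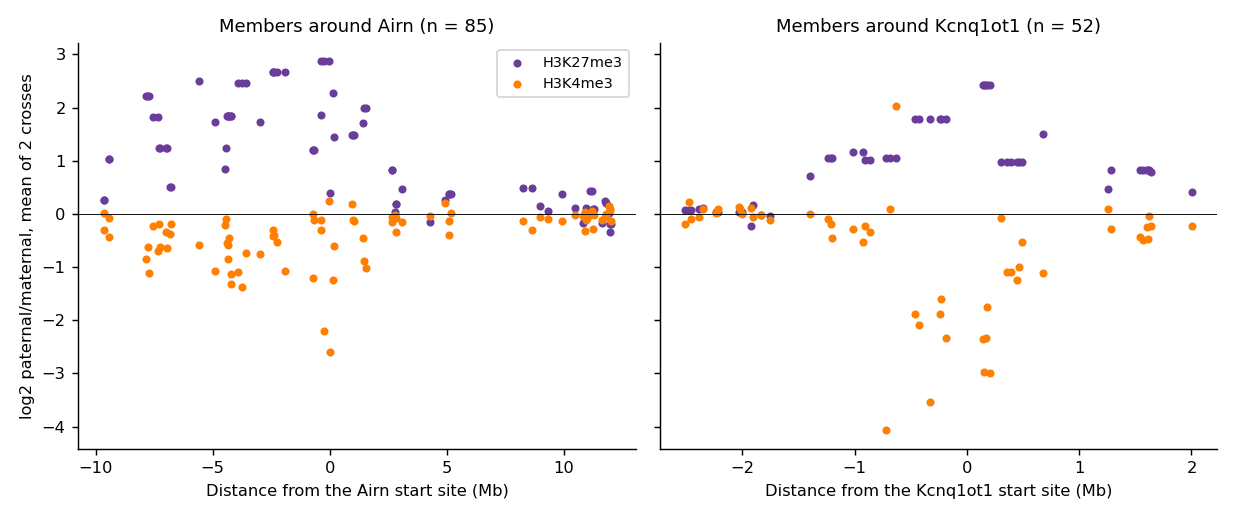
Parental log2 ratio (y axis, paternal over maternal, mean of both crosses) of H3K27me3 and H3K4me3 for members by distance in Mb from the start of Airn (left, n = 85) and of Kcnq1ot1 (right, n = 52), with positive distances toward higher coordinates. H3K27me3 lies above 0 between -9.43 and 2 Mb around Airn and between -1.40 and 1.64 Mb around Kcnq1ot1, and H3K4me3 lies mostly below 0 there, with Igf2 at 2.03 as the highest point.

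Single imprinted promoters outside the gene lists of these domains showed both arrangements. H19 and Igf2, described here, lie within 3 Mb of Kcnq1ot1 and were also counted in that window. Grb10, encoding an adaptor that restrains growth factor signalling, had maternal H3K4me3 in a peak with 145 reads (chr11:12034000-12039500; 6.38, 14.3, 6.45 and 6.25% paternal) and paternal H3K27me3 (75.4, 79.0, 92.5 and 87.3%). Its difference of -6.03 log2 units was the most negative of the members that passed (adjusted p = 4.07e-23). H19, a maternally expressed noncoding RNA, had 10.5, 7.94, 3.91 and 2.24% paternal H3K4me3 reads. Igf2, the paternally expressed growth factor gene on the same H3K27me3 peak (chr7:142580000-142774500), had 72.5, 73.0, 87.9 and 84.6%. That H3K27me3 peak was 67.9, 69.8, 66.2 and 65.8% paternal, so 1 H3K27me3 peak touched H3K4me3 of either parent. It overlapped the H19 peak over 3000 of its 9000 bp, so the marks at H19 need not lie on the same sequence. Between the marks the difference was -5.18 log2 units at H19 and 0.94 at Igf2 (adjusted p = 2.46e-09).

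Igf2 was 1 of the 5 members with both marks on the paternal allele. At Plagl1, a zinc finger transcription factor gene (chr10:13089500-13092500), the paternal share of H3K4me3 was 97.4 and 91.8% in B6/CAST and 100 and 97.9% in CAST/B6, and that of H3K27me3 86.2, 81.0, 86.5 and 85.2%. At Mest, encoding a member of the alpha/beta hydrolase family (chr6:30732000-30741000), it was 95.9, 97.5, 97.3 and 95.6% for H3K4me3 and 63.3, 64.5, 70.1 and 62.8% for H3K27me3. At the Gnas complex, in a peak that holds starts of Gnas and of the antisense RNA Nespas (chr2:174282500-174302000), it was 72.0, 65.6, 68.8 and 67.6% for H3K4me3 and 87.8, 86.5, 92.7 and 89.3% for H3K27me3. Both marks were thus on the paternal side in every wild-type library at these loci. In the Gnas peak 6000 bp overlapped H3K27me3, so the marks need not lie on the same promoter. The fifth member, at the noncoding gene Platr12 in the Gpr1 region (chr1:63199000-63205500), had 86.7% ± 6.12 (SD, n = 4) paternal H3K4me3 and 72.6% ± 8.21 paternal H3K27me3. Of the 29 genes listed with maternal germline methylation, 12 had a member, in 13 members. H3K4me3 was paternal in 6 and maternal in 2, H3K27me3 paternal in 6 and maternal in 1, and the marks were opposite in 2 and on the same allele in 4.

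The members with paternal H3K4me3 and maternal H3K27me3 numbered 5, on 4 H3K27me3 peaks. Sfmbt2, a Polycomb group gene with paternal expression in trophoblast, had paternal H3K4me3 (chr2:10362000-10382500) of 85.7 and 80.4% in B6/CAST and 87.8 and 85.1% in CAST/B6. The H3K27me3 there (chr2:10276000-10382500) was 27.8, 29.0, 27 and 30.9% paternal. The difference between the marks was 3.79 log2 units (adjusted p = 6.02e-36). An intergenic H3K4me3 peak at chr2:10310500-10313500 on the same H3K27me3 peak was a second of the 5, with a difference of 2.59.

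Platr20, a noncoding RNA gene (chr11:51218500-51222500), had H3K4me3 of 84.0, 73.5, 94.6 and 96.7% paternal and H3K27me3 of 36.1, 37.9, 41.9 and 37.8%, a difference of 3.85 log2 units (adjusted p = 2.41e-23). Sall1, a zinc finger transcription factor gene (chr8:89033500-89056500), had a weaker H3K4me3 bias, with 60.4, 56.1, 63.9 and 54.5% paternal. Its H3K27me3 was 9.16, 26.3, 20.8 and 22.7% paternal, a difference of 2.61. Zdbf2, a zinc finger gene (chr1:63271500-63275500), had H3K4me3 of 68.9, 71.4, 71.8 and 71.1% and H3K27me3 of 26.6, 25.9, 31.3 and 32.8% paternal, a difference of 2.51. Platr20 and Sall1 thus differed in which mark was the more one-sided. At Smoc1, encoding a secreted calcium-binding protein, an intergenic H3K4me3 peak nearest to the gene was 80.5, 79.6, 97.3 and 98.8% paternal, while H3K27me3 at 44.4, 46.6, 43.7 and 45.6% was not called in both crosses. The difference there was 4.03. Of the 9 genes in the noncanonical list 6 had a member, in 8 members, with paternal H3K4me3 in 4, maternal H3K27me3 in 4 and both in 3, against 0.19 and 0.226% of all peaks for the single marks.

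**Figure D4:**
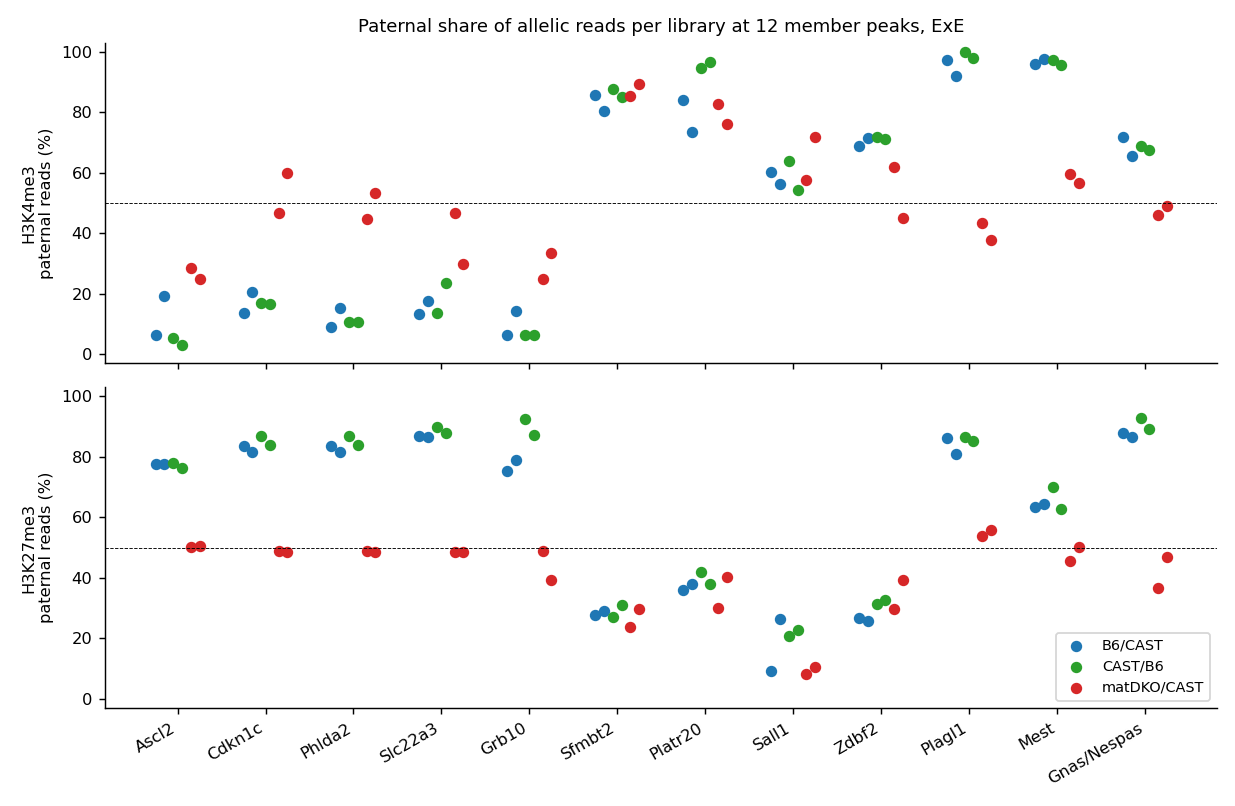
Paternal share of allelic reads in percent (y axis) in each ExE library at 12 members, H3K4me3 above and H3K27me3 below, with 1 point per library and the dashed line at equality. Ascl2 to Grb10 have wild-type H3K4me3 below and H3K27me3 above the line, Sfmbt2 to Zdbf2 the reverse, and Plagl1, Mest and Gnas/Nespas both above it.

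Dlk1, a Notch-family ligand gene of the chromosome 12 imprinted domain, had maternal H3K27me3 (20.3, 23.7, 22.7 and 24.4% paternal) with H3K4me3 of 55.3% ± 6.71 (SD, n = 4) that was not called. Between the marks the difference was 2.04 log2 units (adjusted p = 3.28e-14). Of the 9 genes listed with paternal germline methylation, 5 had a member. H3K4me3 was paternal in 1 and maternal in 1 of these 5 members, and H3K27me3 paternal in 2 and maternal in 3.

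Developmental transcription factors are genes whose promoters commonly carry both marks. Of 63 listed genes, among them the Hox, Pax, Sox, Gata and Fox families, 62 had a member, in 62 members. 0 were imprinted in either mark under the edgeR call, against 0.319 and 1.35% of all peaks, so the counts lie near the background. The joint fit passed for parent in 0 for H3K4me3 (0.711% of all peaks) and in 3 for H3K27me3 (7.27% of all peaks). Their parental log2 ratio lay between -0.34 and 0.35 for H3K4me3 and between -0.21 and 0.31 for H3K27me3. The difference between the marks passed in 0 for parent, against 2.64% of all pairs, and in 10 (16.1%) for strain, against 26.4% of all pairs.

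In matDKO/CAST, H3K27me3 moved toward equality at all 26 members of the maternal H3K4me3 and paternal H3K27me3 class. The change was tested as the interaction of cross and parent against B6/CAST, in which the strains are on the same sides. H3K27me3 passed in 26 of these 26 members, on 14 peaks, against 0.742% of all peaks and 150 (1.59%) of all members. Its median log2 ratio of 1.80 in B6/CAST, beside 2.05 in CAST/B6, stood against -0.07 after maternal deletion. The B6/CAST libraries also entered the calls that defined the class. H3K4me3 passed in 3 of the 26, Tssc4, Cdkn1c and Phlda2, against 0.892% of all peaks and 98 (1.04%) of all members. Its medians were -1.84, -1.50 and -0.28 over a median of 60.5 H3K4me3 reads per member in matDKO/CAST, and the part of depth in the count was not tested. With the block, H3K4me3 passed in 9 of the 31 members with opposite marks, in 211 of all members, and H3K27me3 in 267 of all members. Leaving out 1 pool of B6/CAST or matDKO/CAST at a time, the H3K4me3 count of 3 became 0 to 2.

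At Cdkn1c the paternal share of H3K4me3 was 46.7 and 60.0% in the 2 matDKO/CAST libraries (14 paternal and 16 maternal reads, then 9 and 6), and that of H3K27me3 48.8 and 48.6%. At Phlda2 H3K4me3 was 44.7 and 53.3%. Ascl2 H3K4me3 stayed lower, at 28.6 and 25% paternal (4 paternal and 10 maternal reads, then 2 and 6), with H3K27me3 at 50.1 and 50.5%, and its H3K4me3 change did not pass. Cd81, on the same H3K27me3 peak, had 19.6 and 30.4% paternal H3K4me3 (20 paternal and 82 maternal reads, then 21 and 48), and its change did not pass either. Of the 26 members with maternal H3K4me3 and paternal H3K27me3, 18 were on the maternal side in H3K4me3 in matDKO/CAST. Slc22a3 had 46.7 and 30% paternal H3K4me3 (7 and 8 reads, then 3 and 7) and 48.6 and 48.4% paternal H3K27me3. At H19, H3K4me3 was 14.2 and 7.35% paternal, and the H3K27me3 peak that overlapped it in part was 44.5 and 45.6% paternal. H3K4me3 thus remained maternal at H19 while that H3K27me3 peak was close to equal.

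The 5 members with paternal H3K4me3 and maternal H3K27me3 were on the same sides in matDKO/CAST for both marks by the reads of both libraries together, although at Zdbf2 the paternal share of H3K4me3 was 61.8% in 1 library and 45.2% in the other. The median log2 ratio of H3K4me3 was 1.13 there, where the wild-type medians were 1.22 with B6 mothers and 1.65 with CAST mothers. The H3K27me3 median was -1.48, against -1.34 and -1.32. At Sfmbt2 H3K4me3 was 85.3 and 89.2% and H3K27me3 23.6 and 29.9% paternal. The interaction passed in 0 of 5 for H3K4me3 and in 1 of 5 for H3K27me3, Zdbf2, which moved toward equality by 0.71 log2 units (adjusted p = 0.0481). A p-value over the threshold does not show that the other members were alike in both crosses. Of the 5 with both marks paternal, the interaction passed in 4 for H3K4me3 and 3 for H3K27me3. Plagl1 went to 43.5 and 37.9% paternal H3K4me3 and to 53.9 and 55.8% paternal H3K27me3. Mest went to 59.5 and 56.6% paternal H3K4me3. Igf2 was the member without an H3K4me3 change that passed, at 75.3 and 80.5%. The part of the added 129 reads in the matDKO/CAST shares was not tested, and the median log2 ratio of all members there was -0.10 for H3K4me3 and -0.26 for H3K27me3.

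On the strain axis, members called in both marks were divided evenly between opposite and same alleles. Strain-specific peaks were those that passed in both crosses with the same strain ahead. For H3K4me3 369 of 9408 members (3.92%) passed, 197 toward B6 and 172 toward CAST, against 3.96% of all peaks (2.24% B6, 1.71% CAST). For H3K27me3 632 of 9428 (6.70%) passed, 300 toward B6 and 332 toward CAST, against 4.32% of all peaks (2.07% B6, 2.26% CAST). With library totals this split turned to 339 toward B6 and 287 toward CAST. Both marks passed in 56 members, 28 with the marks on opposite strains and 28 on the same strain. DESeq2 called 68 members for H3K4me3, 108 for H3K27me3, 3 on opposite strains and 4 on the same strain. Leaving out 1 pool gave 6 to 12 on opposite strains and 8 to 11 on the same strain. In the joint fit with a term for strain, 1680 members passed for H3K4me3 (17.9%, against 19% of all peaks) and 2819 for H3K27me3 (29.9%, against 23.3%), with 392 on opposite and 250 on the same strain. The block gave 47 in place of 28 opposite strain-specific members, and 620 and 429 in the joint fit. The difference between the marks passed for strain in 2415 members (25.8%, against 26.4% of all pairs), 1250 with H3K4me3 on the B6 side and 1165 on the CAST side.

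**Figure D5:**
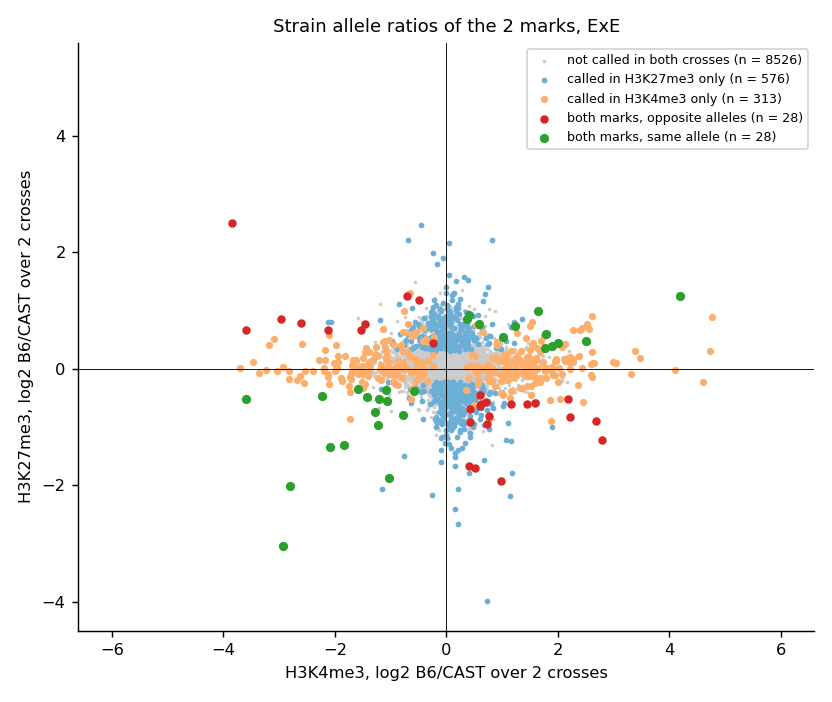
Strain ratio of H3K27me3 (y axis) against H3K4me3 (x axis), as log2 B6/CAST over both crosses, 1 point per member (n = 9471). Members called in both marks lie in all 4 quadrants, 28 on opposite strains and 28 on the same strain.

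Among the 56 members strain-specific in both marks, the difference between marks with H3K4me3 on the CAST side was largest at an exonic peak of Srl, the sarcalumenin gene (chr16:4494500-4499000). Its H3K4me3 was 8.16 and 4.44% B6 in B6/CAST and 4.85 and 7.14% in CAST/B6, and its H3K27me3 (chr16:4494500-4503000) 87.9, 87.3, 84.7 and 79.6% B6. The B6 shares of a mark were close in both crosses. The difference between the marks was -6.39 log2 units (adjusted p = 9.55e-26). An intronic peak of Fam83a, a gene of a family that binds casein kinase, had 11.3% ± 1.22 (SD, n = 4) B6 H3K4me3 and 64.2% ± 3.99 B6 H3K27me3, a difference of -3.83.

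In the other direction, the promoter of Uggt2, encoding a glucosyltransferase of glycoprotein quality control (chr14:119097500-119104000), had H3K4me3 of 66.9, 61.1, 63.7 and 73.2% B6 and H3K27me3 of 22.5, 19.8, 18.3 and 23.2% B6. The difference was 2.92 log2 units (adjusted p = 5.10e-19). The promoter of Eps8l1, related to the actin regulator Eps8 (chr7:4459500-4466500), had 89.7, 83.6, 68.4 and 84.8% B6 H3K4me3 and 37.3, 40.8, 35.0 and 29.7% B6 H3K27me3, a difference of 3.04. Among the 5 largest differences toward each strain, the marks were on the same strain at Bod1-ps and at an intergenic peak at chr2:172221000-172223500, with differences of 3.00 and -3.10, where 1 mark was the more one-sided.

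The rule for members did not name length or CpG content. Both the rule and the calls depend on read number, which was higher in the class on the longest H3K27me3 peaks. Length is thus not independent of the selection. The 26 with maternal H3K4me3 and paternal H3K27me3 lay on 14 H3K27me3 peaks, with a median length of 368000 bp in which shared peaks count once per member, and had a median of 36.2 CpG per kb in the H3K4me3 peak, against 35000 bp and 23.1 over all members. The 5 of the reverse class had 65000 bp and 19.1 CpG per kb, and the 5 with both marks paternal 14500 bp and 27.9. A start site lay in 80.8, 80 and 100.0% of them, against 70.9% of all members. The 26 had a median of 23650 H3K27me3 reads, against 1413 over all members, and their features were not tested.

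In the epiblast, 5890 pairs met the same rule, and their parental r was 0.04 (rho 0.07). Over the 5329 ExE members that overlapped an epiblast pair, r was -0.32 in ExE and -0.02 in epiblast. Epiblast and ExE peaks differ in length and depth, and the difference between the tissues was not tested. At Ascl2 the epiblast log2 ratios were 0.22 for H3K4me3 and 1.41 for H3K27me3, against -3.55 and 1.79 in ExE. At Pde10a they were -0.03 and 0.20, against -1.09 and 2.47. At Cdkn1c they were -2.73 and 2.33, against -2.33 and 2.42, and at Grb10 -3.99 and 4.33, against -3.43 and 2.50. The arrangement of maternal H3K4me3 and paternal H3K27me3 was thus present in both tissues at Cdkn1c and Grb10, and at Ascl2 and Pde10a the H3K4me3 ratio was near 0 in the epiblast.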

How the data were processed

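ChIP-seq of H3K4me3 and H3K27me3 was analysed in ExE of the reciprocal B6 and CAST crosses and of matDKO/CAST, with 2 libraries per mark and cross, grouped by the labels. Each library was a pool of embryos. The submitters' processing notes name Trim Galore 0.4.4, Bowtie2 2.3.2 and GRCm38. According to the methods, the authors aligned reads to a genome masked at B6 and CAST variants, assigned reads to an allele with SNPsplit, called peaks with chromstaR in each cross, and merged them by tissue. The deposited allelic tables hold raw read counts per peak and allele, without normalization, in which only reads over a variant enter. The deposited RPKM table of 1 kb windows, made by the authors from all reads, served only for the tissue markers. Start and end columns gave the coordinates. For part of the peaks the deposited name holds other coordinates, under which 8556 in place of 9471 pairs were members. Columns with the authors' own comparisons were not used.

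A member was an H3K4me3 peak with at least 1 bp on an H3K27me3 peak, both with 40 or more allelic reads in each wild-type cross. Where several H3K27me3 peaks overlapped, the one with the most shared bases was taken. The members and gene lists were chosen with earlier results of these data known. Counts of autosomal peaks with at least 20 reads in 1 allele column were tested with edgeR 4.0.16 (quasi-likelihood F test, TMM, two-sided, Benjamini-Hochberg over all such peaks of a mark) in R 4.3.3, per cross, jointly with terms for cross, strain and parent, and, for the difference between marks, over all pairs with mark-by-parent and mark-by-strain terms. Both alleles of a library come from 1 pool and are therefore paired. Within a cross, the replicate differences of the maternal and paternal columns correlated with r of 0.13 and 0.13 for H3K4me3 and 0.05 and 0.06 for H3K27me3, and the fit with the library as a block was an alternative. Other alternatives were library totals, RLE factors, no filter, DESeq2 1.42.0, other read minimums and overlaps, and leaving out each pool. Tables were handled in Python 3.11.15 with pandas 2.3.3, numpy 2.4.6 and scipy 1.17.1.

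Named genes were the members within 10000 bp of a listed imprinted gene, the 10 members imprinted in both marks with the most reads, and the 5 members with the largest difference between marks in each direction of parent and, among those strain-specific in both marks, of strain. A peak took the gene whose start it held, or else the nearest within 10000 bp. Promoter sequences are from RefSeq on GRCm38. On counts simulated for the 11390 pairs with 200 changed, the call in both crosses recovered 65% of changes of 1 log2 unit and 95% of 2 units, with 0 unchanged pairs called, and the difference between marks recovered 81 and 100%, with 9 unchanged pairs called. The simulation gave all peaks of a mark 1 common spread, had no strain effect or pairing of alleles, and changed H3K4me3 only. It therefore does not give the error rates of the real calls or the recovery of H3K27me3 calls. Depth was 2.11 to 6.82 M (megareads) of allelic reads per library. Reads were not tied to molecules by identifiers, so the shares carry more than counting error. Results at 1 named member are not reported here.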

Additional observations from a re-analysis of the deposited data

Results flagged for a closer look

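At 23 peaks of members imprinted in both marks the parental log2 ratio differed between matDKO/CAST and B6/CAST by the interaction of cross and parent in edgeR (adjusted p under the threshold). Differences are matDKO/CAST minus B6/CAST on the fitted log2 scale, with 2 libraries in each cross, and the part of the reads matched to 129 and added to the maternal side in matDKO/CAST was not tested.

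For H3K4me3 at promoters with a paternal bias, the difference was -3.06 at Platr12 (adjusted p = 7.49e-05), -1.24 at Gnas/Nespas (0.00805), -4.27 at Mest (4.63e-06) and -4.72 at Plagl1 (2.99e-05). At promoters with a maternal bias it was 1.61 at Tssc4 (0.0159), 2.48 at Cdkn1c (0.0256) and 2.91 at Phlda2 (0.000909).

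For H3K27me3 on chromosome 7 the difference was -1.24 over H19 and Igf2, -1.59 over the peak from Gm6471 to Kcnq1 that holds Ascl2, -2.13 over Cdkn1c and Phlda2, -0.98 over Tnfrsf22, and -1.45 over the peak chr7:143864000-144350000, whose member had no gene within 10 kb. On chromosome 17 it was -1.80 over Arid1b, -0.89 over Zdhhc14, -1.89 over Rps6ka2, -1.51 over Fndc1, -2.15 over Pde10a, -2.60 over Slc22a3 and -1.68 over Dact2. All 12 were paternal in B6/CAST.

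Elsewhere the H3K27me3 difference was -3.03 at Gnas/Nespas, -1.88 at Plagl1 and -1.89 at Grb10, each paternal in B6/CAST. At Zdbf2, maternal in B6/CAST, it was 0.71 (adjusted p = 0.0481).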

How the results depend on the processing

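All 31 members with opposite marks were called again with library totals, RLE factors and the library block, 30 without the filter and 30 with 1 spread shared by the crosses, 14 with DESeq2 and 14 to 25 when 1 pool was left out. The 5 with both marks paternal were called again in 4 or 5 under each of these. Of 341 alternative values of counts and correlations 230 were close to the reported one and 111 moved, and no correlation changed sign. With library totals the direction split turned for imprinted H3K27me3 (155 paternal and 57 maternal to 126 and 132), the parental difference between marks (80 and 169 to 154 and 150), the H3K4me3 strain effect (815 B6 and 865 CAST to 904 and 812, and 832 and 819 with RLE factors) and strain-specific H3K27me3 (300 and 332 to 339 and 287). Of 512 alternative values of single members 490 kept their direction and side of the threshold. At Mkrn3, not called, the difference between marks of -0.34 became 0.059 without CAST/B6 pool 1 and -0.69 without CAST/B6 pool 2.

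Library block. It gave 409 imprinted members for H3K27me3, parent effects in 116 (H3K4me3), 1758 (H3K27me3) and 16 (both, same allele), 400 parental differences between marks, 47 strain-specific members on opposite alleles, strain effects in 620 on opposite and 429 on the same allele, and matDKO/CAST differences in 211 (H3K4me3), 267 (H3K27me3) and 9 (H3K4me3, opposite members). By direction, differences between marks with H3K4me3 on the paternal side went from 80 to 149 and maternal H3K27me3 parent effects from 575 to 1027.

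DESeq2 gave lower counts, with 24 imprinted members for H3K4me3, 109 for H3K27me3 and 14 opposite, 68 and 108 strain-specific with 3 opposite and 4 same, parent effects in 491 (H3K27me3), 32 opposite and 4 same, and strain effects in 703 and 1150, 101 opposite and 58 same. With 80 reads per cross, 6718 members remained, with 232 strain-specific for H3K4me3 and strain effects on the same allele in 153. Without chromosomes 7 and 17, chosen after the data were seen, 124 parental differences between marks passed.

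Leaving out 1 pool at a time gave 26 to 39 imprinted members for H3K4me3, 118 to 182 for H3K27me3, 14 to 25 opposite and 4 to 5 same. Strain-specific members numbered 122 to 243, 174 to 444, 6 to 12 opposite and 8 to 11 same. Parent effects numbered 49 to 63, 437 to 798, 30 to 40 opposite and 5 to 8 same, and strain effects 924 to 1123, 1575 to 2235, 142 to 219 opposite and 93 to 123 same. Differences between marks numbered 137 to 195 for parent and 1485 to 1850 for strain, and matDKO/CAST differences 24 to 96 for H3K4me3, 77 to 129 for H3K27me3, 0 to 2 for H3K4me3 and 25 to 27 for H3K27me3 of the opposite members.

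The correlation in B6/CAST, CAST/B6 and the mean of crosses was -0.081, -0.045 and -0.183 with 20 reads per cross (strain -0.013), -0.147 and -0.118 with 80 reads (strain -0.083), and -0.153, -0.152 and -0.289 with 200 reads. With 1 H3K4me3 peak per H3K27me3 peak it was -0.057, -0.023 and -0.074, and without members near listed imprinted genes -0.062, -0.028 and -0.060. Chosen after the data were seen, it was -0.062, -0.023 and -0.00077 without chromosomes 7 and 17, -0.057, -0.014 and -0.00010 without the longest H3K27me3 class, and -0.057, -0.022 and -0.027 without members called imprinted in either mark. For the mean of crosses it was -0.158 between marks of different pools and -0.181 when touching peaks were counted. Leaving out 1 pool it lay between -0.112 and -0.065, between -0.077 and -0.053, between -0.202 and -0.165, and for strain between -0.048 and -0.026. The causes of these moves were not tested.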

Other observations

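Among the members, 11 were called imprinted in H3K4me3 and not in H3K27me3, and they are named here after their values were seen. Besides Smoc1 and Igf2r, paternal H3K4me3 was called at the start of Magel2, a gene of the Prader-Willi region (log2 paternal/maternal 1.12, with 0.25 for H3K27me3), at the start of Galnt6, encoding a glycosyltransferase of O-glycan synthesis (2.62 and 0.13), in an exon of Myl2, a myosin light chain gene (2.64 and 0.22), in an exon of Ccdc40 (1.59 and -0.20), and in an intron of 2410003L11Rik (1.52 and -0.26). The remaining 4 were intergenic, at chr8:80915000-80920000 (2.85 and 0.23), chr9:118340500-118342500 (2.16 and 0.20), chr15:97135000-97145500 (1.70 and 0.02) and near B130034C11Rik on chromosome 16 (1.18 and 0.05). In the joint fit the H3K27me3 parent effect passed at Smoc1, Magel2, Galnt6, Myl2, Ccdc40 and 2410003L11Rik, toward the father at Magel2, Galnt6 and Myl2. At Galnt6 and Ccdc40 the H3K27me3 peak was 218000 and 236000 bp long, so its ratio is a mean over a domain far longer than the H3K4me3 peak.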
